A study of Mus musculus with 21 samples.

Results

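Transcripts of the core splicing machinery and of the heterogeneous nuclear ribonucleoproteins (hnRNPs) were followed in mouse uterus across age. The genes were taken by symbol, as every listed gene whose name starts with Srsf, Hnrnp, Sf3a, Sf3b or Snrp. There were 51 of them among 12791 listed genes: 10 Srsf, 20 Hnrnp, 9 Sf3a or Sf3b and 12 Snrp genes. Of 52 protein-coding genes with such symbols in the GENCODE M21 annotation, Srsf12 was not analysed here. The rule uses symbols only, though the family was picked with earlier results of these data known. All 51 had at least 10 reads in every library, as did every other gene listed.

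Introns are removed from precursor mRNA by the spliceosome, which is built on small nuclear ribonucleoproteins (snRNPs). The Snrp genes encode the Sm proteins, which form a ring around the small nuclear RNAs, and proteins specific to the U1 and U2 snRNPs, while Sf3a and Sf3b are the protein complexes of the U2 snRNP that grip the branch site. SR proteins, from the Srsf genes, bind mostly exonic enhancers and help exons to be recognised, and hnRNPs coat the nascent transcript and often act against exon inclusion. These genes are not used here as markers of a cell type, and bulk tissue does not show which cells of the uterus express them.

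Whole uterus was sampled from C57BL/6J mice, a wild type inbred strain, at 5 weeks, at 8 weeks and in old age. Per the labels, all mice, the younger controls included, had pregnant mare serum gonadotropin injected 48 hours before dissection, at 5 or 7.5 units, and the labels do not assign the amounts to animals. An earlier set held 2 libraries each at 5 weeks, at 8 weeks and from aged mice of 60 to 75 weeks. A later set held 5 libraries at 5 weeks, 5 at 8 weeks and 4 from aged mice of 79 weeks. RNA was prepared with either of 2 kits and read as single reads of 60 bases or pairs of 150 bases, with no assignment to libraries in the labels. Set, kit, read length and, for the aged mice, age cannot be told apart. The labels do not say outright that each library is a separate mouse, so p-values measure the spread between libraries.

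Libraries held 12204573 to 14448283 reads in the earlier and 19100690 to 30689439 in the later set. The first principal component took 48.2% of the variance and parted the sets, from -91.9 to -51.4 in the earlier and from -15.6 to 63.9 in the later set. 5w replicate 5 (-15.6) and aged replicate 7 (-9.57) lay between the sets, and the next later library was at 16.5. All 16 genes of the luminal and general epithelium list, all 12 stromal and all 11 smooth muscle markers were listed, as were 3 of 8 glandular genes. No listed gene was at 0 in any library. The columns of 5w replicate 3 and 8w replicate 3 lie in files attached to another age group, and each library was placed by its column header.

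Promoters of 3 genes are printed, of Srsf2, Hnrnpa2b1 and Snrpa1, because each was lower with age against both younger ages and without any 1 library. Each sequence is the 250 bases before the RefSeq start on GRCm38.p6, read 5′ to 3′ on the gene's strand. Capitals mark letters searched for on both strands: GGGCGG (SP1), CCAAT (NFY), TTCCCGC (E2F) and TATAAA. The windows are chr11:116853095-116853344 on the minus strand for Srsf2, chr6:51469895-51470144 on the minus strand for Hnrnpa2b1 and chr7:66060086-66060335 on the plus strand for Snrpa1.
Srsf2: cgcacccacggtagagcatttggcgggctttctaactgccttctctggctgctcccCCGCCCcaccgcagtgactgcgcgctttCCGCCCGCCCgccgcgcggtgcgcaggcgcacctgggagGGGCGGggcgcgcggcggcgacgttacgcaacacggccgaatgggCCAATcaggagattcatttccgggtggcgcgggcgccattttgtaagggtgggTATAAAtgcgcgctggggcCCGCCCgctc
Hnrnpa2b1: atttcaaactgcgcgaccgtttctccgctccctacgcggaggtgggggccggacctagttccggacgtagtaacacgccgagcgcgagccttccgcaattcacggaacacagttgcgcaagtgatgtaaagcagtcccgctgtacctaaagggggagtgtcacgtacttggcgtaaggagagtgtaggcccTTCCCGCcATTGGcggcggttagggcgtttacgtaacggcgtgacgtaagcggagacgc
Snrpa1: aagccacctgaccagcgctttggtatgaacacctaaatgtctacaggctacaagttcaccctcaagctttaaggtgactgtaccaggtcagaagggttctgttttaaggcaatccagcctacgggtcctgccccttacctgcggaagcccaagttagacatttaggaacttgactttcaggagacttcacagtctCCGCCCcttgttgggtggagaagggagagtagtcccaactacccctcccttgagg

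The letters found differed among these 3 windows: Srsf2 holds SP1, NFY and TATA letters, Hnrnpa2b1 holds E2F and NFY letters, and Snrpa1 holds SP1 letters. Of the 51 genes, 45 had a RefSeq window, here from 250 bases before to 50 after the start. A gene was counted as holding the letters if any of its windows did. The ETS letters CCGGAAG were in 16 of 45 (35.6%), against 19.9% of 10017 tested genes with a window. They were in 8.86% of all 32851 windows, a share of single windows that is not comparable with the shares of genes. E2F letters were in 17.8%, against 9.73% of tested genes, and NFY letters in 51.1%, against 42.7%. SP1 letters were in 71.1%, against 69.3%. TATA letters were in 15.6%, against 8.65%, NRF1 letters (GCGCATGC) in 6.67%, against 5.91%, CRE letters (TGACGTCA) in 4.44%, against 3.50%, and YY1 letters (AAGATGG) in 4.44%, against 8.33%. A match is a run of letters and not a measured site.

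In aged against 8-week uteri 14 of the 51 genes fell and none rose, by limma with Benjamini-Hochberg adjustment over all genes at a threshold of 0.05. That is 27.5% of the 51, and over all genes 8.53% were called lower and 8.64% higher. The fallen genes were 6 Hnrnp (Hnrnpa1, Hnrnpa2b1, Hnrnpa3, Hnrnpf, Hnrnpk, Hnrnpll), 5 Srsf (Srsf1, Srsf2, Srsf3, Srsf7, Srsf10) and 3 Snrp genes (Snrpa1, Snrpb2, Snrpd1), and no Sf3a or Sf3b gene was called. The difference was negative for 45 of the 51 and for 5802 of all 12791 genes. The median over the 51 was -0.42 on the log2(CPM + 1) scale, against 0.05 over all genes. CPM are read counts scaled to a sum of 1000000 per library. In bulk tissue, fewer cells of a type and less RNA per cell cannot be told apart.

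**Figure D1:**
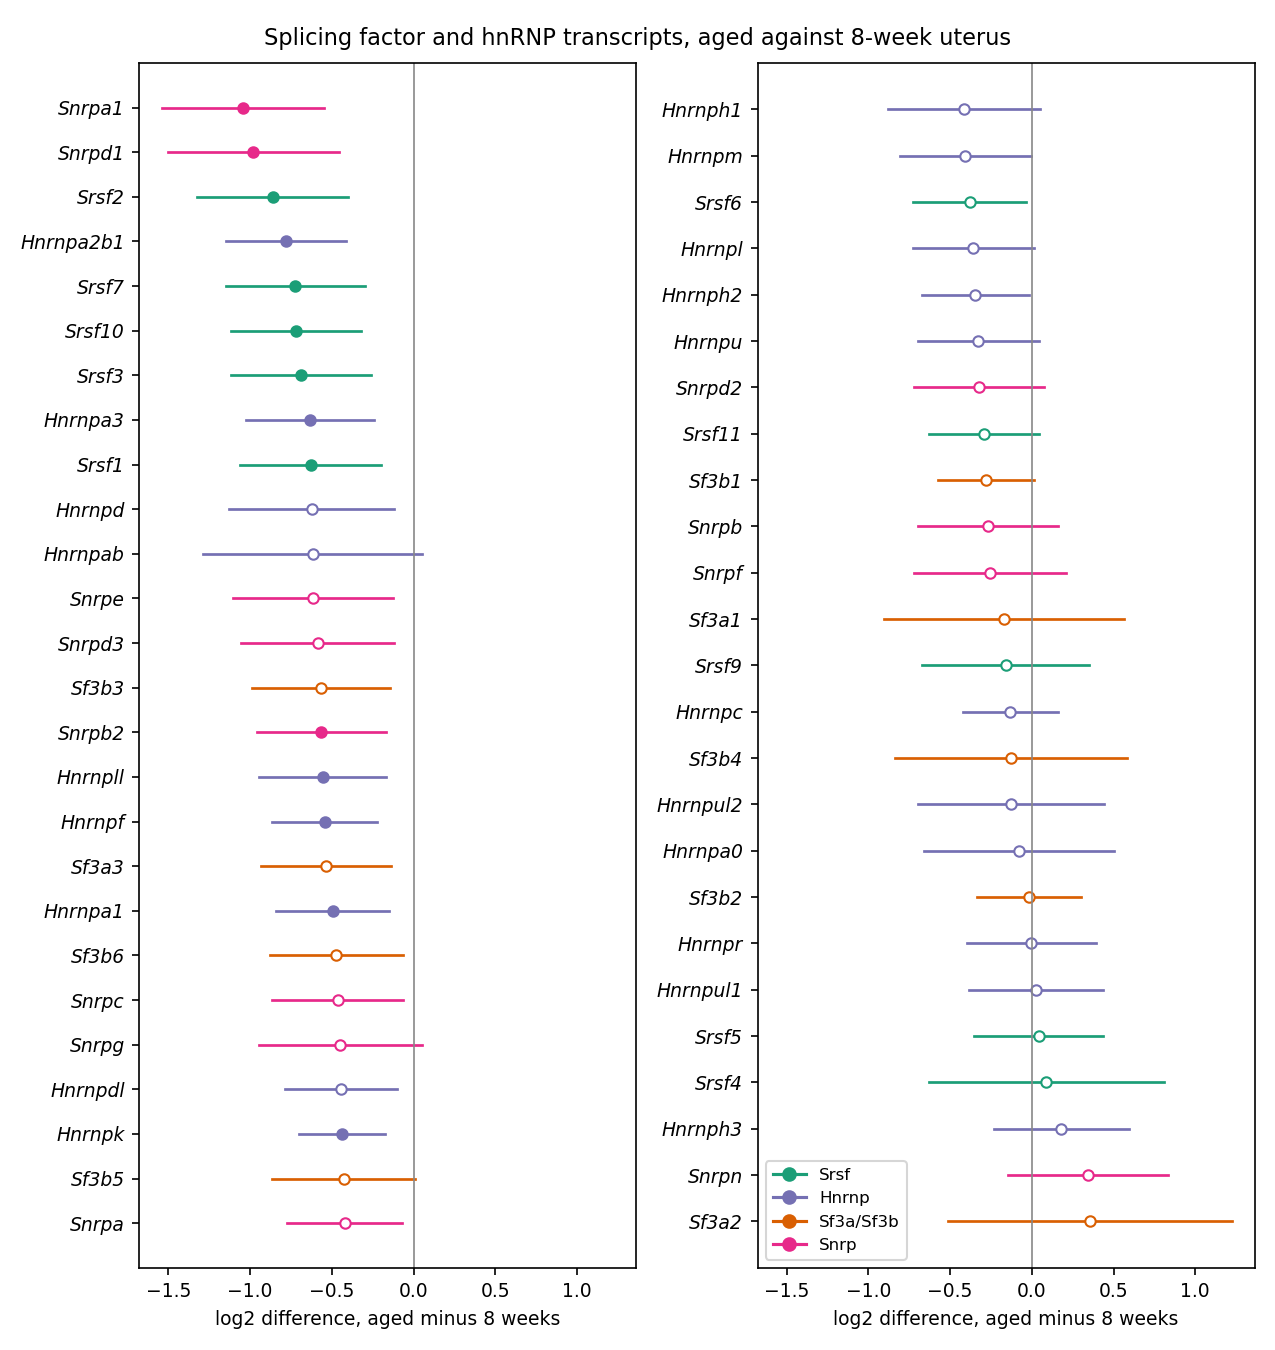
Fitted log2 difference, aged minus 8 weeks, for each of the 51 genes (points) with its 95% interval (lines), ordered by size and coloured by family. Filled points are the 14 genes called in the limma fit, all to the left of 0, and open points the other 37.

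The number of calls depended on the set and on single libraries. The counts over all genes moved with them. By limma on the later set alone no member was called, where 1.03% of all genes were called lower. A count of 0 of 51 thus lies near the background. There 11 of 51 members and 1850 of 12791 genes had an unadjusted p under 0.05. On the earlier set alone 22 members were called lower, where 13.2% of all genes were. Without aged replicate 1 the count was 5, where 5.06% of all genes were called lower. Without 8w replicate 1 it was also 5 (5.43% of all genes), without 8w replicate 2 it was 7 (5.70%), and without 8w replicate 3 it was 9 (5.90%). 5 genes were called in each of the 20 fits that left out 1 library: Hnrnpa2b1, Snrpa1, Snrpd1, Srsf10 and Srsf2. The same count over all genes is not given here, so 5 of 51 is not set against a background. With 5w replicate 5 and aged replicate 7 both left out the count was 16, where 9.01% of all genes were called lower.

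In the fit that gives each set its own age effect, the median difference was -0.77 in the earlier set, where 49 of 51 were negative, and -0.26 in the later set, where 38 were. Over all 12791 genes 5929 were negative in the earlier and 5922 in the later set. In that fit 13 members were called lower in the earlier set, where 8.44% of all genes were. In the later set none was called, where 1.5% of all genes were called lower, which is near the background for 51 genes. There 11 members and 2163 of 12791 genes had an unadjusted p under 0.05. The 13 calls of the earlier set rested on single libraries: 1 member was left without aged replicate 1, 1 without 8w replicate 1 and 1 without 8w replicate 2, where 0.453%, 2.23% and 1.38% of all genes were called lower. With 1 library left at that age of the set, its spread was assumed to be that of the other groups. No member's change differed between the sets by the interaction test, in which 0.0235% of all genes were called. In it 8 of 51 members and 1855 of 12791 genes had an unadjusted p under 0.05, so the members' count is near the background. The nearest was Snrpa1, at an adjusted p of 0.0689.

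**Figure D2:**
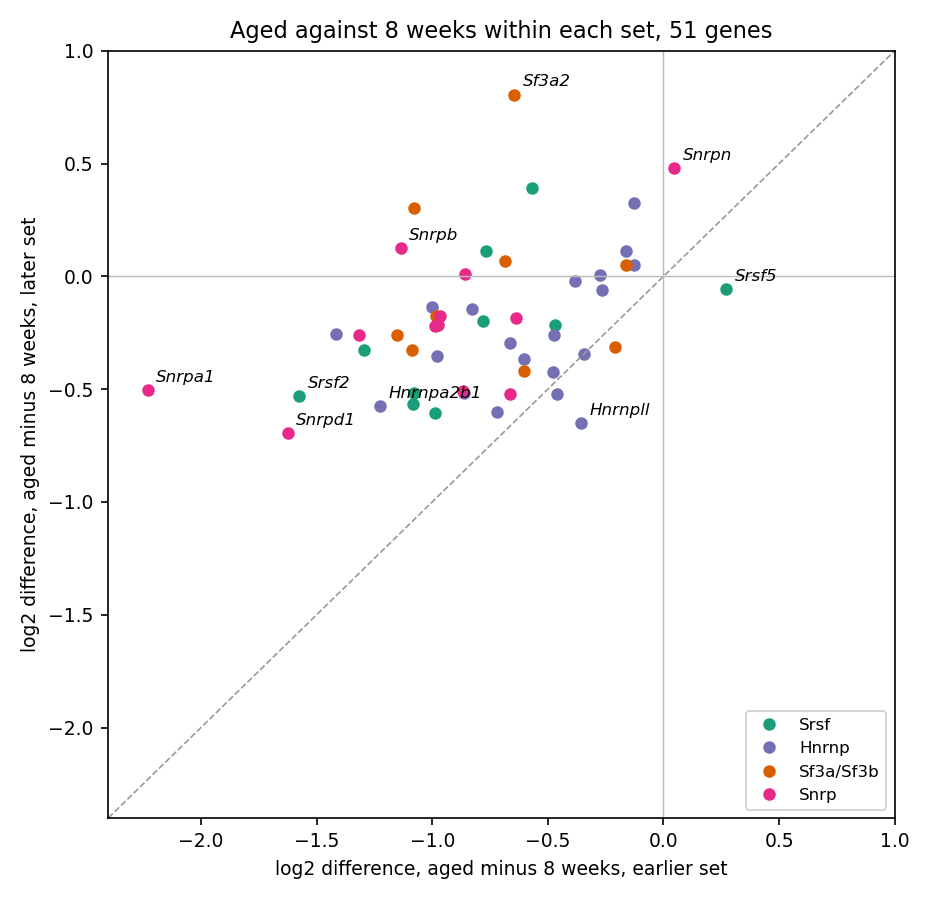
Log2 difference, aged minus 8 weeks, in the earlier set (x axis) against the later set (y axis), 1 point per gene coloured by family, with the dashed line marking equal change. Most points lie left of 0 and above the dashed line, with Snrpa1 at -2.23 and -0.50.

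Against 5-week uteri 12 of the 51 genes were lower in aged uteri and none was higher, where 9.41% of all genes were called lower and 12.7% higher. They were Hnrnpa1, Hnrnpa2b1, Hnrnpa3, Hnrnpf, Hnrnph2, Hnrnpk, Hnrnpll, Snrpa1, Snrpd1, Srsf1, Srsf2 and Srsf3. The median difference was -0.41, against 0.09 over all genes, and 43 of 51 were negative, as were 5492 of 12791 genes. The aged libraries are the same in both comparisons, so the 11 genes lower against both ages (7.30% of all genes were lower against both) are not 2 independent results. The later set alone gave 2 calls, where 2.21% of all genes were called lower, and the earlier alone 4, where 8.55% were. Both counts are near the background and say nothing of the members in particular. The interaction test called 0% of all genes and no member, and 2 members and 1079 of 12791 genes had an unadjusted p under 0.05.

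Between 8 and 5 weeks no gene of the 12791 was called (0%), and 139 had an unadjusted p under 0.05, none of them a member. The median over the 51 genes was 0.03, with a range from -0.26 to 0.24. The 139 genes are a smaller share than the 0.05 that this threshold gives on average when no gene differs, and the reason was not tested. The power to see small differences at this age step is limited by the number of libraries.

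Among the hnRNPs, Hnrnpa2b1, an RNA-binding protein of the A/B group with roles in splicing and RNA transport, parted the ages most cleanly. Its CPM in the earlier set was 1287 and 1243 at 5 weeks, 1400 and 1339 at 8 weeks, and 431 and 793 in aged uteri. In the later set it ran from 887 to 1619 (median 1222) at 5 weeks, from 894 to 1403 (median 1240) at 8 weeks and from 725 to 817 (median 767) in aged uteri. All 6 aged libraries lay below all 14 younger ones. The fitted difference was -0.78 ± 0.18 (SE; adjusted p = 0.00525) against 8 weeks and -0.80 ± 0.18 (adjusted p = 0.00329) against 5 weeks, by limma.

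Hnrnpk, which binds C-rich RNA and DNA, was the other gene whose aged libraries lay below all younger libraries of their own set, in both sets. Of all genes 1.95% did so, and a count of 2 among 51 members is near that background. Its CPM in the earlier set was 435 in both 5-week libraries, 461 and 409 at 8 weeks, and 242 and 337 in aged uteri. The later set ran from 628 to 898 (median 785), from 606 to 804 (median 714) and from 499 to 566 (median 541). The differences were -0.44 ± 0.13 (adjusted p = 0.0217) and -0.53 ± 0.13 (adjusted p = 0.00587) against 8 and 5 weeks. No member had all its aged libraries above the younger ones of both sets, as 1.03% of all genes did.

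Hnrnpf, of the group that binds G-rich RNA, had 41.2 and 61.1 CPM in the earlier aged libraries, against 73.3 to 100 in the 4 younger ones. In the later set its aged libraries held 192 to 231 CPM, against 211 to 385 in the younger, so the later groups overlapped. The difference was -0.54 ± 0.16 (adjusted p = 0.0215) against 8 weeks and -0.61 ± 0.16 (adjusted p = 0.00862) against 5 weeks. Its relative Hnrnph2 was called against 5 weeks alone (-0.54, adjusted p = 0.0188; against 8 weeks -0.35, adjusted p = 0.132).

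Hnrnpa1 and Hnrnpa3, of the same A/B group, fell by 0.49 and 0.63 on the log2 scale against 8 weeks (adjusted p = 0.0459 and 0.0254). Against 5 weeks they fell by 0.70 and 0.69 (adjusted p = 0.00579 and 0.0124). Hnrnpa1 in the later set ran from 556 to 1018 CPM at 5 weeks, from 457 to 692 at 8 weeks and from 317 to 426 in aged uteri. The later aged libraries lay below all younger ones of that set, while the ranges at 5 and 8 weeks overlapped. Its earlier aged libraries, at 15.6 and 23.6 CPM, overlapped the younger ones, at 21.7 to 28.4. Without 8w replicate 1 the adjusted p of Hnrnpa1 against 8 weeks was 0.10, and for 13 of the 20 left-out libraries the call was lost.

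Hnrnpll, known for splicing of the lymphocyte receptor CD45, fell by 0.56 against 8 weeks (adjusted p = 0.0457) and by 0.70 against 5 weeks (adjusted p = 0.0118). The other hnRNP genes were not called against either age. The broad nuclear hnRNP Hnrnpc differed by -0.13 and Hnrnpu by -0.33 against 8 weeks. Hnrnph3 (0.18) and Hnrnpul1 (0.03) were the 2 Hnrnp genes above 0, and neither passed the test.

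Among the SR proteins Srsf2, which acts in constitutive and regulated exon recognition, had 328 and 330 CPM at 5 weeks, 385 and 337 at 8 weeks and 83.2 and 174 in aged uteri of the earlier set. Later libraries ran from 150 to 271 (median 220), from 146 to 268 (median 257) and from 136 to 157 (median 148). The earlier groups were apart, and the later aged libraries lay within or below the low end of the younger ones. The difference was -0.86 ± 0.22 (adjusted p = 0.0121) against 8 weeks and -0.76 ± 0.22 (adjusted p = 0.019) against 5 weeks.

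Srsf10, an SR protein that can repress splicing when dephosphorylated, had 127 and 99.3 CPM at 8 weeks and 39.7 and 79.3 in aged uteri of the earlier set. At 5 weeks that set held 76.7 and 85.1, so aged replicate 2 lay between them. Later libraries ran from 120 to 214, from 106 to 231 and from 108 to 123. The difference against 8 weeks was -0.72 ± 0.19 (adjusted p = 0.0147), and against 5 weeks it was -0.51 ± 0.19 (adjusted p = 0.0627).

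Srsf3, the smallest SR protein and also an mRNA export adaptor, fell by 0.69 against 8 weeks (adjusted p = 0.0275) and by 0.58 against 5 weeks (adjusted p = 0.049). Its later aged libraries held 232 to 287 CPM, and the younger ones 248 to 520. Srsf7, its close relative, fell by 0.72 against 8 weeks (adjusted p = 0.0199) and differed by -0.53 against 5 weeks (adjusted p = 0.0663). Srsf1, the SR protein on which much early splicing biochemistry was done, fell by 0.63 and 0.58 (adjusted p = 0.0411 and 0.0478).

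Without aged replicate 1 the adjusted p against 8 weeks was 0.0796 for Srsf3 and 0.0587 for Srsf7. That library held 79.7 CPM of Srsf3 and 74.2 of Srsf7, against 196 and 174 in the other earlier aged library. Srsf1 without 8w replicate 1 had an adjusted p of 0.102. Against 5 weeks the call of Srsf1 was lost in 16 and that of Srsf3 in 15 of the 20 fits without 1 library.

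Srsf5, another SR protein, was not called against either age. It had 196 and 192 CPM at 5 weeks, 216 and 173 at 8 weeks and 233 and 233 in aged uteri of the earlier set. The later values ran from 219 to 644 (median 495), from 515 to 680 (median 547) and from 512 to 578 (median 560), and the groups overlapped. The difference against 8 weeks was 0.04, with a 95% interval from -0.35 to 0.44.

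**Figure D3:**
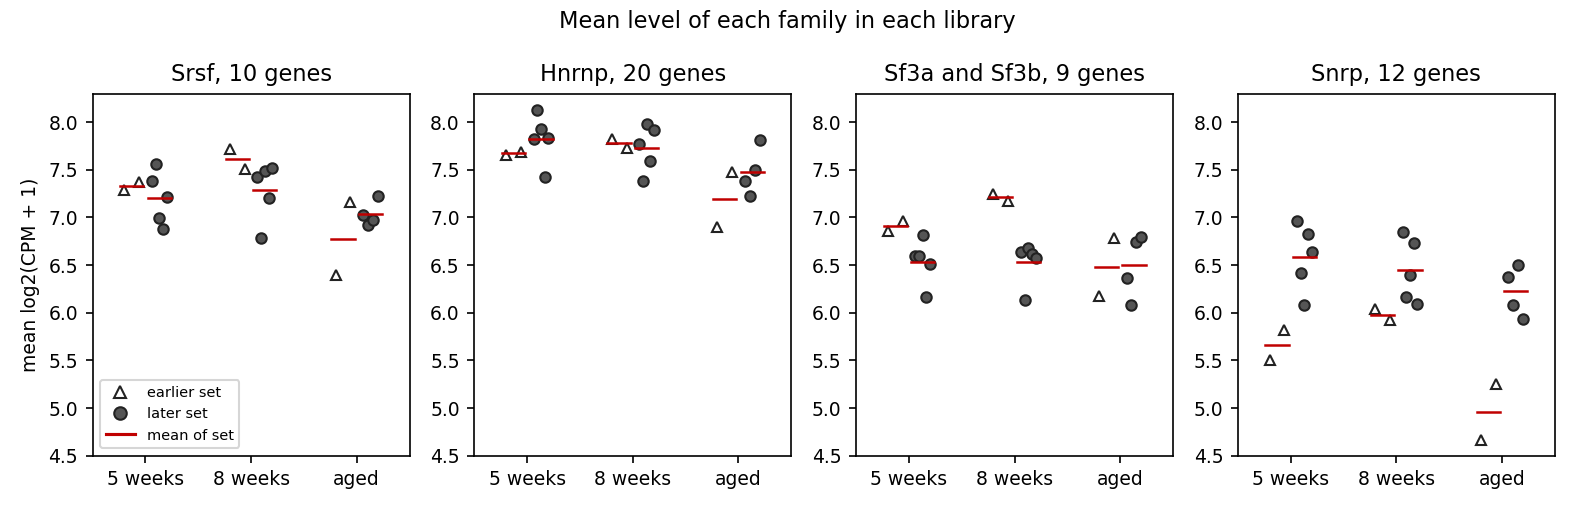
Mean log2(CPM + 1) of each family in each library (y axis) by age (x axis). Triangles are the earlier set, circles the later set and red lines the mean of each set within an age. In the earlier set both aged libraries lie below all 4 younger ones in each panel, and in the later set the ages overlap in each panel.

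Of the snRNP proteins, Snrpa1, the U2 A′ protein, had the largest fall against 8 weeks among the 51 genes. Its CPM in the earlier set was 74.7 and 92.1 at 5 weeks, 114 and 131 at 8 weeks and 19.2 and 33.2 in aged uteri. In the later set it ran from 49.7 to 76.7 (median 74.1), from 47.7 to 78.5 (median 60.6) and from 37.5 to 57.8 (median 40.8). Of the 6 aged libraries 5 lay below all 14 younger ones. The difference was -1.04 ± 0.24 (adjusted p = 0.00585) against 8 weeks and -0.98 ± 0.24 (adjusted p = 0.00665) against 5 weeks, that is, 51.5% and 49.4% lower. Within the sets it was -2.23 in the earlier and -0.50 in the later.

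Snrpd1, a subunit of the Sm ring, had 61.8 and 90.4 CPM at 5 weeks, 127 and 101 at 8 weeks and 25.9 and 50 in aged uteri of the earlier set. Its later values ran from 80.3 to 218 (median 171), from 96.3 to 214 (median 139) and from 69.9 to 99.3 (median 86.4). The earlier groups were apart and the later ones overlapped at their edges. The difference was -0.98 ± 0.25 (adjusted p = 0.0119) against 8 weeks and -0.88 ± 0.25 (adjusted p = 0.0171) against 5 weeks. Without aged replicate 1 the second call was lost, at an adjusted p of 0.0523.

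The partner of Snrpa1 on the U2 snRNP, Snrpb2, fell by 0.56 against 8 weeks (adjusted p = 0.0467), a call lost in 13 of the 20 fits without 1 library. The remaining Sm ring genes were not called. Snrpd3 differed by -0.59 (adjusted p = 0.0753) and Snrpb by -0.27 (adjusted p = 0.389) against 8 weeks. Snrpb was -1.14 in the earlier set and 0.13 in the later, with an adjusted p of 0.133 for the difference between them.

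Snrpn, an imprinted relative of Snrpb known from brain, was low, at 5.01 to 16.4 CPM across all libraries. Its difference against 8 weeks was 0.34, with an interval from -0.14 to 0.83, which makes it the 1 Snrp gene above 0. Its exons overlap those of Snurf on the same strand over 27.3% of their length, so reads of the pair could not be told apart there.

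No gene of the Sf3a and Sf3b complexes was called against either younger age. Over all genes 8.53% and 9.41% were called lower against 8 and 5 weeks. A count of 0 of 9 thus lies near the background and does not set these genes apart. Their median differences were -0.28 against 8 weeks, where 8 of 9 were negative, and -0.18 against 5 weeks, where 6 were. Sf3b1, the large branch site subunit, had 357 and 356 CPM at 5 weeks, 382 and 341 at 8 weeks and 269 and 361 in aged uteri of the earlier set. Its later values ran from 246 to 455, from 304 to 465 and from 282 to 328, and the ages overlapped. The difference against 8 weeks was -0.28, with an interval from -0.58 to 0.01.

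Sf3b3 (-0.56, adjusted p = 0.0594) and Sf3a3 (-0.53, adjusted p = 0.057) came closest to a call against 8 weeks. Sf3b6, which contacts the branch point, differed by -0.47 and the small subunit Sf3b5 by -0.43. Sf3a2 had the most positive difference of the 51 genes, 0.36, with an interval from -0.51 to 1.23. In the fit with an age effect for each set, the earlier-set medians against 8 weeks were -0.88 for Srsf, -0.48 for Hnrnp, -0.69 for Sf3a and Sf3b and -0.97 for Snrp genes. In the same order the later-set medians were -0.27, -0.28, -0.17 and -0.22.

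**Figure D4:**
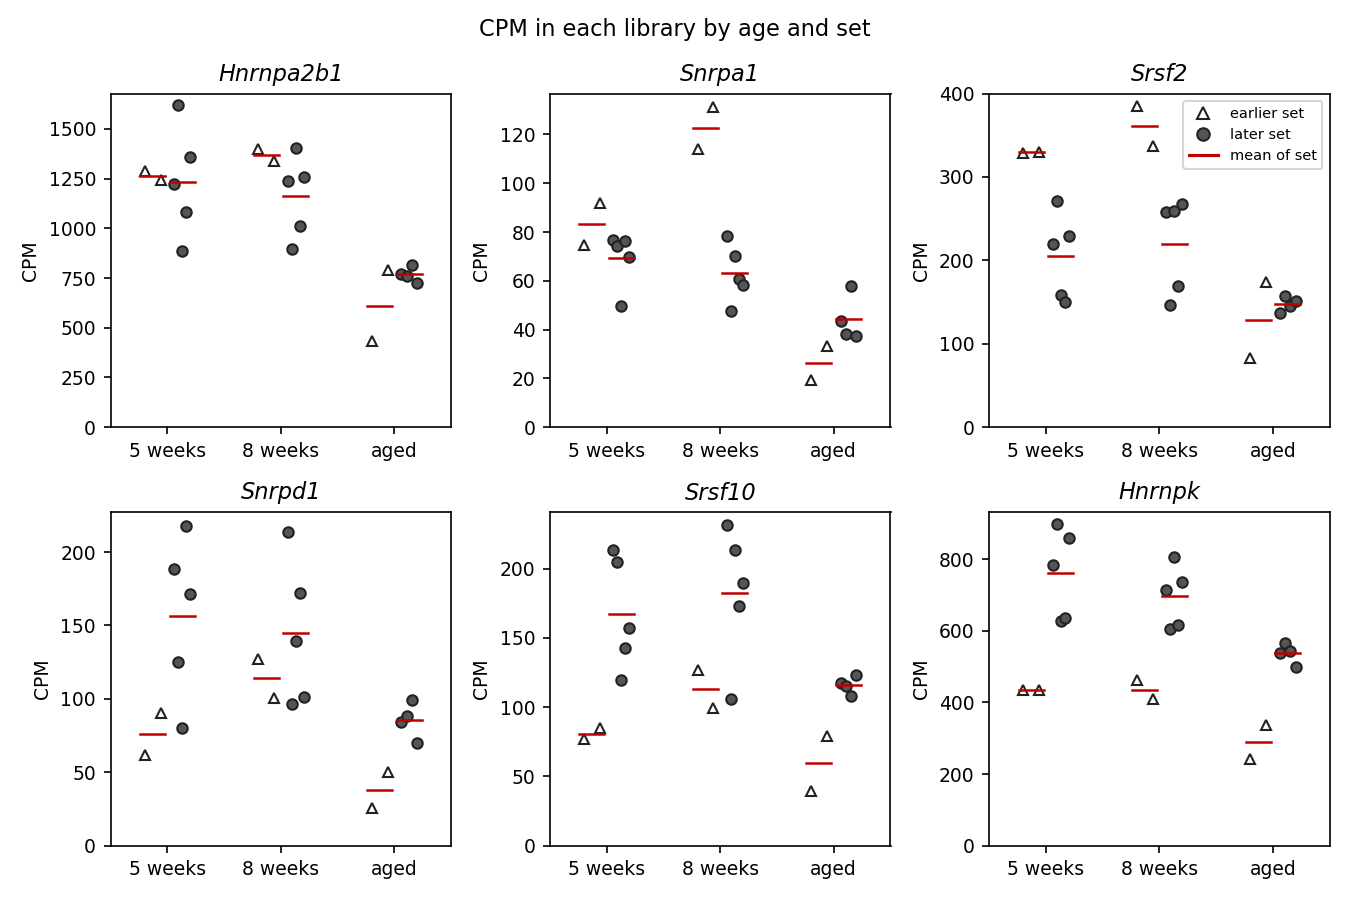
CPM in each library (y axis, from 0) by age (x axis) for 6 genes. Triangles are the earlier set, circles the later set and red lines the mean of each set within an age. In the panel of Hnrnpa2b1 the 6 aged libraries, at 431 to 817, lie below every younger one.

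Per kilobase of annotated exon, in the later set, Hnrnpa1 was the highest of the 51 genes at a mean of 180.1 CPM per kb, followed by Hnrnpa2b1 (163), Srsf5 (136) and Hnrnpa3 (130). The lowest were Srsf4 (3.07), Hnrnpr (4.26) and Snrpn (4.37). The order of the highest depends on the set, since Hnrnpa1 and Hnrnpa3 differed widely between the sets.

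Over all 51 genes together the summed level was 11837 to 12730 CPM at 8 weeks and 5973 to 8891 in aged uteri of the earlier set. In the later set it was 8751 to 12427 at 8 weeks, 10132 to 13841 at 5 weeks and 8224 to 9553 in aged uteri. The aged and younger libraries were apart in the earlier set and overlapped with 8w replicate 4 alone in the later.

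The sets differed far more than the ages for some members. With age held constant, 14 of the 51 were lower and 18 higher in the later set, where 38.3% of all genes were lower and 20.5% higher. Over all genes the median set difference was -0.20, and median centring of each library moved it to 0.09. That changed the split of calls from 4894 lower and 2618 higher to 3497 and 4330, and quantile normalization gave 3838 and 3683. Of the members 11 were then lower and 27 higher under median centring, and 14 and 25 under quantile normalization.

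Hnrnpa1 was at 15.6 to 28.4 CPM in the 6 earlier libraries and at 317 to 1018 in the 14 later ones, 4.48 higher on the log2 scale. Hnrnpa3 was at 18.3 to 50.2 and 437 to 1106, 4.06 higher. Snrpf (2.38), Snrpg (2.28) and Hnrnpf (1.82) followed. Sf3a1 (-1.86), Hnrnpa0 (-1.78) and Hnrnpul2 (-1.77) were the members with the lowest values, and for Hnrnpa0 the 2 libraries lying between the sets held 454 and 422 CPM where the other later libraries held 97.2 to 195. All these values are differences between sets and not between ages, and the test of the set term had an adjusted p of 7.72e-16 for Hnrnpa1 by limma.

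These members share sequence with other genes to very different degrees. Each transcript of a member in the GENCODE M21 annotation on GRCm38 was divided into all its windows of 60 bases, the length of the single reads. Each window was looked up in the other annotated genes, leaving out genes whose locus overlaps that of the member. For 17 members no window was shared in this count, and for 5 at least 20% were. Members without a shared window can still overlap a neighbouring gene, as Hnrnpm does over 14.7% of its exons on the same strand. One shared coding window is printed for each of 3 members, to show runs that a single read of 60 bases could not place. They lie at chr2:75661506-75661565 (Hnrnpa3), chr6:117924294-117924353 (Hnrnpf) and chr6:86376534-86376593 (Snrpg), all on the plus strand of GRCm38.
Hnrnpa3: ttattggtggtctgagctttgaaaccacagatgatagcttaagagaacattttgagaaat
Hnrnpf: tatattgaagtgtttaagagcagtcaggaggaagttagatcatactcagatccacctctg
Snrpg: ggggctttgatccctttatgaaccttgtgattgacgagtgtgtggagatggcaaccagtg

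The Hnrnpa3 window stands letter for letter in 21 other annotated genes, of which 20 are pseudogenes. The Hnrnpf window is in 7 others, 5 of them pseudogenes, and the Snrpg window in 2, both pseudogenes. Over the whole gene the shared share was 27.7% for Hnrnpa1, 26.6% for Hnrnpa3, 41.7% for Hnrnpf, 20.3% for Snrpf and 10.7% for Snrpg. With windows of 150 bases, the length of each paired read, it was 23.6%, 24.5%, 29.4%, 10.3% and 5.26% in the same order. Sequence was thus shared at both read lengths.

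The set difference rose with this share. Its median was -0.41 for the 17 members with no shared window, -0.02 for 19 with under 5% shared, 0.88 for 10 with 5 to 20% and 2.38 for 5 with 20% or more. In the 2 upper classes 14 of 15 members were higher in the later set and none was lower. The exception was Sf3b4, at 41.4% shared and 0.45 higher, which was not called. Spearman's rho across the 51 members was 0.74 and Pearson's r was 0.66, given as a description over genes that share libraries. The counting of multiply placed reads was not stated, and the part of shared sequence in the set difference was not tested. A gene with shared windows may hold reads of its copies, so the levels of members in the 2 upper classes are uncertain. Beside Hnrnpa1, Hnrnpa3, Hnrnpf, Snrpf and Snrpg they include Sf3b4. They also include Hnrnph2 (13.6%), Hnrnpk (13.3%), Srsf10 (9.62%) and Srsf3 (8.79%), each called lower against at least 1 younger age. Overlap on the opposite strand can add to this, since the library kit named in the labels does not mark strand. It covers 85.4% of the exons of Snrpf, 43.0% of those of Srsf4 and 29.1% of those of Hnrnpab. For Hnrnpf it covers 26.5% and for Srsf2 25.3%.

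**Figure D5:**
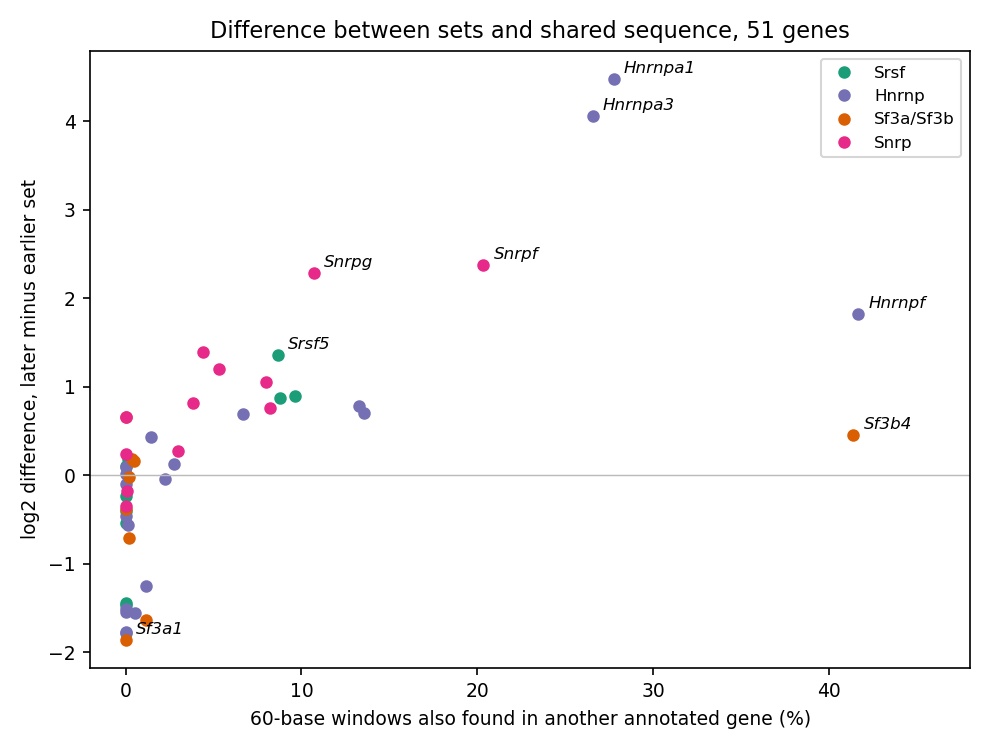
Log2 difference, later minus earlier set (y axis), against the share of a gene's 60-base windows found in another annotated gene (x axis, %), 1 point per gene coloured by family. Genes whose locus overlaps that of the member were left out of the share. Hnrnpa1 and Hnrnpa3 stand highest, and members with no shared window run from -1.86 to 0.66.

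The other genes of the splicing pathway were read from 12 lists with 191 genes in all. Of these 24 were lower (12.6%, against 8.53% of all genes) and 6 higher (3.14%, against 8.64%) in aged than 8-week uteri, with a median of -0.18. Against 5 weeks 28 were lower (14.7%, against 9.41% of all genes) and 6 higher (3.14%, against 12.7%), with a median of -0.11. Both medians lay between those of the 51 genes and of all genes. The counts of single lists that follow are small and in several lists near these background shares, so they are descriptions and set no list apart. The lists closest to the U2 snRNP held 11 partners of the branch site, of which 3 fell against both ages and none rose: U2af1 (-0.73 against 8 weeks), which reads the 3′ splice site, Phf5a (-0.72), a subunit of the Sf3b complex outside the symbol rule, and the helicase Dhx15 (-0.55).

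Among 15 measured genes of snRNP assembly 2 fell against both ages, Gemin6 (-1.06) and Strap (-0.62), both of the SMN complex that loads Sm rings onto small nuclear RNAs. Of 13 LSm genes, relatives of the Sm proteins, 3 fell against 8 weeks (Lsm12, Lsm8 and Lsm2, at -0.66, -0.68 and -0.93) and 6 against 5 weeks, and none rose. Of 17 genes of the U4/U6.U5 tri-snRNP 3 fell and 1 rose against 8 weeks, among them Ppih (-1.03) and Snu13 (-0.56), while Prpf6 rose by 0.54.

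Alyref (-0.96), Nxt1 (-0.85) and Thoc6 (-0.53), which carry spliced mRNA out of the nucleus, were the 3 of 18 genes of the exon junction and export list that fell against 8 weeks, and none rose. Of 19 SR-related genes the paralogs Tra2b (-0.75) and Tra2a (-0.61) fell and none rose. Of 22 genes of the Prp19 complex and activation, Ppil1 (-0.77) fell and Slu7 (0.35) rose, and of 9 minor spliceosome genes Snrnp25 (-0.57) fell and Zrsr1 (0.99) rose.

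Of 38 tissue and RNA-binding regulators 5 fell and 2 rose against 8 weeks. The cold-inducible pair moved apart, with Rbm3 at -0.87 and Cirbp at 0.95, and Mbnl3 was at -1.15. None of 10 SR protein kinase and transport genes and none of 10 nonsense-mediated decay genes was called against either age by limma, with medians of 0.03 and 0.02 against 8 weeks.

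Several marker lists moved with age beside these genes. Of 36 cell cycle genes 35 were lower in aged than in 8-week uteri, and their summed level in the later set was 339 to 760 CPM in aged and 1269 to 2692 at 8 weeks, and in the earlier set 427 to 1514 against 4688 to 6490. Of 6 measured plasma and B cell genes 4 were higher, at a sum of 1600.5 to 7499 CPM against 449 to 848 in the later set. Of 7 lymphatic endothelial genes 5 were higher and of 4 red blood cell genes all 4 were. Smooth muscle sums spanned 3250 to 29929 CPM in the later aged libraries. The part of any of these in the age differences was not tested.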

How the data were processed

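Uterine RNA libraries were compared across 3 ages in 20 of 21 samples. Deposited values were CPM in a table for each sample, summing to 1000000 in every column, and all values were whole multiples of the value of 1 read within a tolerance of 1e-06. Named in the submitters' processing notes, without versions or roles, were GRCm38 as build and edgeR, fastp, featureCounts and STAR as tools. Libraries were made with a kit that does not mark strand (NEBNext Ultra), per the labels' protocols. Each column was placed by its header, since 15 of 20 headers name another sample than the file does, and 1 file without numbers and aged replicate 3, with no column, were left out.

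From log2(CPM + 1) limma 3.58.1 (R 4.3.3) was fitted over all 12791 genes with age and set as terms, a mean-variance trend and two-sided tests, and a second fit added their interaction. P-values were adjusted by Benjamini-Hochberg over all genes, with a threshold of 0.05. The fit was tested on simulated data, for aged against 8 weeks. Of 100 genes changed by 1 on the log2 scale 64 were recovered, and of 100 changed by 2, 97 were, with 6 unchanged genes called. Most members differed by less than 1, so a gene that was not called need not be unchanged. Fold changes on this scale understate the change of low genes. Depth per library sets the precision of low genes, and the reads are counted without molecular identifiers.

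The genes and the lists were chosen with earlier results of these data known. Members given in full are up to 4 per family by smallest p against each younger age, the highest per kilobase, and textbook members. Members that were called are named as well, and up to 3 genes per pathway list by smallest p against 8 weeks. Some results under this rule are not reported here. Alternatives were pseudocounts of 0.25 and 4, a mean CPM of at least 5, other scalings, no trend, no set term, each set alone, columns attached by file, a replicate block, and libraries left out. Sequences are from RefSeq promoters and the GENCODE M21 annotation, and all 51 genes matched by identifier.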

Additional observations from a re-analysis of the deposited data

Results flagged for a closer look

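A library stood apart from the others of its group in 6 of 81 groups of values tested, and chance gives about 1 in 20 groups. Of these 5 concern aged replicate 1, of the earlier set, on the log2(CPM + 1) scale. Its mean over the Srsf genes was 6.391, with the other 5 aged libraries at 6.917 to 7.223. For Hnrnpa2b1 it was at 8.756, with the others at 9.505 to 9.676. For Srsf2 it was at 6.395, with the others at 7.102 to 7.451. For Srsf3 it was at 6.335, with the others at 7.624 to 8.169, and for Srsf7 at 6.232, with the others at 7.097 to 7.464. These groups pool both sets, and the part of the set in these gaps was not tested.

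The remaining one is 8w replicate 4, of the later set, whose mean over all 51 genes was 6.758, with the other 6 8-week libraries at 7.141 to 7.286.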

How the results depend on the processing

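Counts over all genes often moved with the members' counts, so a change in a count need not be particular to the members. The 2 did not always move in proportion. Against 5 weeks, leaving out 5w replicate 5 and aged replicate 7 took members from 12 to 19 and all genes from 1203 to 1236. On the earlier set alone they went from 12 to 4 and from 1203 to 1093. Those lower in aged than 8-week uteri were 14 members and 1091 of all genes. They became 4 and 469 with no set term, 8 and 835 with the replicate block, and 0 and 132 on the later set alone. On the earlier set alone they were 22 and 1691, and 8 and 764 with 5w and 8w replicates 3 left out together. Columns attached by file gave 0 and 256, where 8 members and 2592 of all genes had an unadjusted p under 0.05 by limma. Without 1 library the members' count ran from 5 to 19. Those lower than at 5 weeks were 12 members and 1203 of all genes. They became 20 and 1645 under median centring and 19 and 1236 with 5w replicate 5 and aged replicate 7 left out together (both chosen after seeing the data), 2 and 565 with no set term, 2 and 283 on the later and 4 and 1093 on the earlier set alone, and 2 and 727 with columns attached by file. Without 1 library the members' count ran from 9 to 18. Members lower in the later set numbered 14 (4894 of all genes), and 7 (1793) with columns attached by file. Without 1 library they ran from 12 to 18. Members whose aged minus 8w change differed between the sets numbered 0, and 7 with columns attached by file. Without 1 library they ran from 0 to 1. The causes were not tested.

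In the fits without a separate age effect for each set, no member was called higher in aged uteri in any of the 33 alternatives. All 14 and 12 called members stayed negative in each. With an age effect for each set, 2 members were called higher than at 5 weeks in the later set with columns attached by file. In that set 1 was called higher without aged replicate 5. Over all genes 977 and 896 were called higher there. Of the 51, 37 were negative in all 33 against 8 weeks and 39 against 5 weeks, in the fits without a separate age effect for each set. The alternatives reuse the same libraries, and the same count over all genes is not given here. For the 22 members given in full, 186 of 1452 values lost and 34 gained a call. No called value changed sign. Against 8 weeks 2 members that were not called did: Snrpb went from -0.27 to 0.13 on the later set alone, and Srsf5 from 0.0426 to -0.0569 on the later set alone, -0.0221 with no set term and -0.00199 under median centring. Without 1 library Srsf5 ran from -0.0210 (8w replicate 2) to 0.0931 (8w replicate 7).

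Replicate numbers did not pair the libraries: over 19 pairs r ran from -0.509 to 0.335 (median -0.088, 4 over 0.1), and 4 of 20 libraries correlated best with their own number. Under the replicate block 10 members were lower than at 5 weeks. A count test with edgeR and TMM scaling were planned and not run here. The earlier set has 2 libraries an age, which limits its precision, and small changes of low genes are least certain.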
